A study of Mus musculus with 24 samples.

Results

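The comparison set mice that differed from the reference both in genotype and in housing against the group closest to an untreated baseline. Hippocampal RNA of CBP-ifKOs kept in environmental enrichment (EE) was compared with that of control littermates kept in standard cages (SC), and the question was which transcripts of the enriched mutants stood at the level of the SC-housed controls and which stayed apart. The comparison used 12 of the 24 libraries in the series, which come from 6 of its 12 mice, since each mouse was sequenced in 2 runs whose counts were merged. There were 3 mice in each group. All were C57BL/6 (C57BL/6J in the study's methods) females of 3 to 6 months, and all had received tamoxifen by 5 intragastric administrations of a 20 mg/ml solution.

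CBP-ifKO_EE denotes mice with floxed alleles of Crebbp and the Camk2a-creERT2 transgene. In them tamoxifen recombines the floxed alleles in adult forebrain excitatory neurons, and the paper states that a truncated CBP without acetyltransferase activity is made. They were housed for about a month in a large box with objects that were changed. Control_SC denotes littermates without the creERT2 transgene that received tamoxifen and stayed in SC. The other groups of 3 mice each, CBP-ifKO_SC and Control_EE, were used to place these values. Because tissue was the whole hippocampus, every library also held RNA of interneurons, glia and vessels, in which the driver is not active. Genotype, transgene and housing change together between CBP-ifKO_EE and Control_SC and cannot be told apart within that comparison. In bulk tissue, fewer cells of a type and less RNA per cell cannot be told apart either.

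CBP, the product of Crebbp, is a lysine acetyltransferase that is recruited by phosphorylated CREB and other transcription factors, acetylates histones at promoters and enhancers, and serves as a coactivator of genes that neurons use for plasticity. EE combines social, physical and sensory stimulation. It is known to raise neurotrophin levels, to promote the survival of newborn granule neurons in the dentate gyrus and to improve spatial memory in rodents.

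The deposited values were raw counts per gene, printed here as CPM, which are counts scaled to the library size after TMM normalization. Totals lay between 33143606 and 37448388 counts in the enriched CBP-ifKOs and between 27056070 and 27833707 in the SC-housed controls, so that 3 counts corresponded to between 0.0801 and 0.111 CPM in these libraries (counting error only). None of the nonzero counts of a CBP-ifKO library was odd, against between 54.0% and 55.1% in the control libraries, and results with the CBP-ifKO counts divided by 2 are given where they matter. If each read was counted as 2, 3 reads correspond to between 0.16 and 0.181 CPM in the enriched CBP-ifKOs. The markers of excitatory neurons and glia were present in every library. Choroid plexus genes summed to between 58.7 and 63.7 CPM in Control_SC and between 43.3 and 74.6 CPM in CBP-ifKO_EE, but reached 1350 CPM in 1 Control_EE mouse (replicate 1), which enters only the shared estimate of the spread and the comparison of the other 6 mice. Meningeal genes ranged from 107 to 185 CPM in Control_SC and from 84.2 to 205 CPM in CBP-ifKO_EE.

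The targeted gene checked the labels. Crebbp (chr16:4081328-4213997, minus strand; GRCm38, as all positions here) stood at 73.9, 81.9 and 70.7 CPM in the 3 SC-housed controls and at 44.5, 48.3 and 46.7 CPM in the 3 enriched CBP-ifKOs. All enriched mutants lay below all controls (log2 fold change -0.70 ± 0.06 (SE), adjusted p = 1.12e-05; edgeR quasi-likelihood test with Benjamini-Hochberg adjustment over all genes, as for every adjusted p-value given here). SC-housed CBP-ifKOs, which share these controls, stood at 50.6, 51.6 and 50.0 CPM. Ep300, which encodes the paralogous acetyltransferase p300, ranged over both groups, at 55.8, 83.7 and 64.4 CPM in controls and 67.7, 80.4 and 73.1 CPM in enriched CBP-ifKOs (log2 fold change 0.12 ± 0.13 (SE), adjusted p = 0.646; 95% interval -0.15 to 0.39). Reads of the transgene also marked the genotype. Esr1, the estrogen receptor gene whose ligand-binding domain is part of the creERT2 fusion, stood at 4.49, 5.82 and 4.14 CPM in controls and at 67.0, 81.7 and 80.5 CPM in enriched CBP-ifKOs, 15.9-fold higher (log2 fold change 3.99 ± 0.13 (SE), adjusted p = 4.82e-11). Arsi, a sulfatase gene that lies beside Camk2a on chromosome 18, rose from 0.965, 1.21 and 1.23 to 5.37, 6.51 and 6.81 CPM (log2 fold change 2.45 ± 0.22 (SE), adjusted p = 1.13e-05).

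In the enriched CBP-ifKOs, 1133 of 18251 genes tested were lower than in SC-housed controls (6.21%) and 487 were higher (2.67%), at an adjusted p-value under 0.05 and with all 12 mice in the fit. Of the lower genes 1060 were protein-coding, and the median size of their change was 0.38 on the log2 scale, with 86 genes changed by more than 1 and 360 by more than 0.5. The higher genes held 455 protein-coding genes, had a median change of 0.32, and 30 exceeded 1 while 89 exceeded 0.5. The counts depended on single mice. They ranged from 665 to 892 lower and from 226 to 311 higher genes when each of the 6 mice was left out in turn, and the lower genes numbered 665 without CBP-ifKO_EE replicate 3 and 714 without Control_SC replicate 3. For the higher genes, leaving out any of the 6 mice moved the count by more than 1.5 times. In SC-housed CBP-ifKOs, against the same 3 controls, 718 genes were lower (3.93%) and 302 were higher (1.65%).

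**Figure D1:**
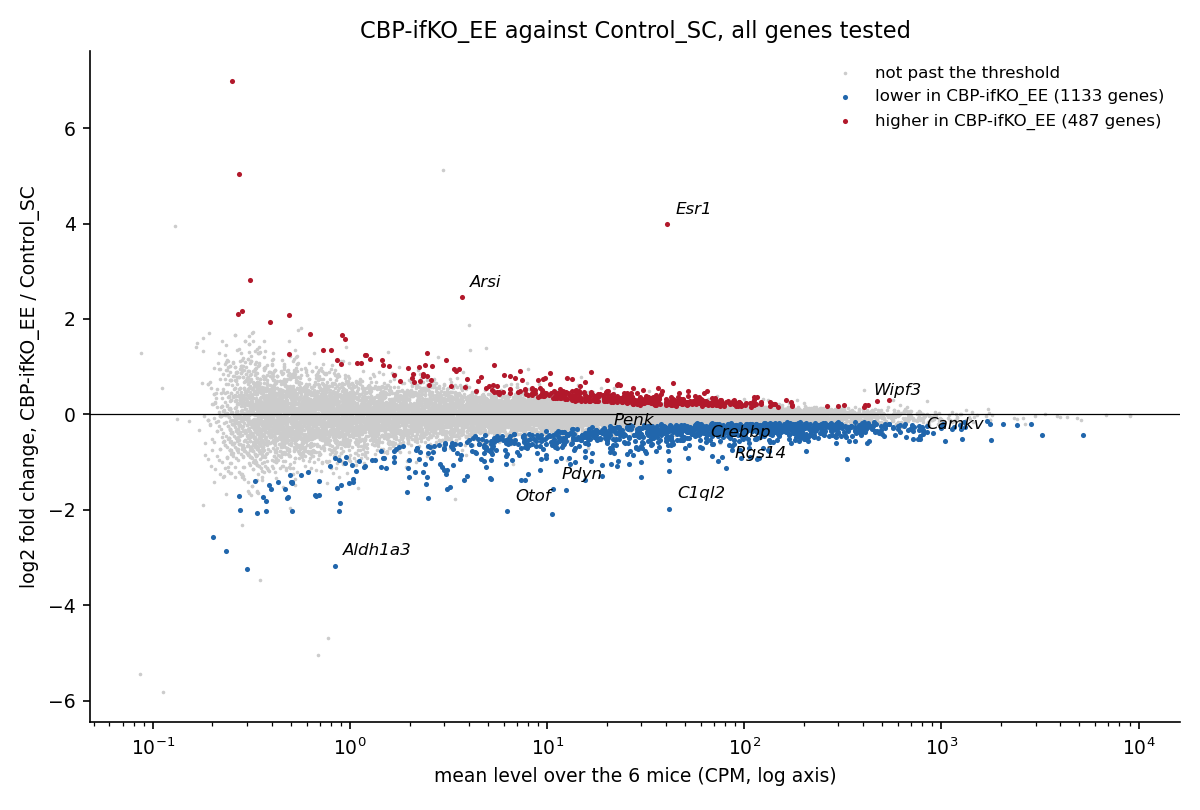
Log2 fold change of every tested gene in CBP-ifKO_EE against Control_SC (vertical axis) by its mean level over the 6 mice in CPM (horizontal log axis); each point is a gene, and colors mark the genes lower or higher at an adjusted p-value under 0.05. The lower genes (1133) outnumber the higher ones (487), and Esr1 stands at 3.99.

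The direct test of what enrichment did within the mutants, CBP-ifKO_EE against CBP-ifKO_SC, passed for 1 lower and 1 higher gene (0.00548% of the genes tested in each direction), while 1567 genes had an unadjusted p under 0.05. DESeq2's Wald test on the same counts called 50 genes, 35 lower and 15 higher, with the genes called by edgeR among them, whereas edgeR called 0 with the CBP-ifKO counts divided by 2, where 1300 had an unadjusted p under 0.05. Of the genes described below, DESeq2 also called Ndufs5, Dcdc2b, Nos1, Igfbp5, Wwtr1, Sox9, St3gal1, Otof, Crtc1 and Ftx lower and Wipf3, Penk, Nptx2 and Aldh1a1 higher in enriched than in SC-housed CBP-ifKOs. None of these passed with edgeR (adjusted p between 0.0933 for Penk and 0.32 for Ftx). The genes that passed with edgeR were 2810459M11Rik and BC002163. The former stood at 19.5, 20.4 and 17.8 CPM in SC-housed CBP-ifKOs and at 12.7, 12.6 and 12.9 CPM in enriched ones (log2 fold change -0.60 ± 0.09 (SE), adjusted p = 0.0432). Against SC-housed controls, at 17.8, 20.4 and 19.2 CPM, it was lower as well (log2 fold change -0.59 ± 0.09 (SE), adjusted p = 0.00068). BC002163, a processed pseudogene, stood at 4.96, 4.57 and 5.93 CPM in SC-housed CBP-ifKOs and at 14.9, 12.8 and 12.5 CPM in enriched ones (log2 fold change 1.37 ± 0.19 (SE), adjusted p = 0.0432). No other gene is described as moved by enrichment here, and the values of the groups are set side by side instead.

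Of the markers of principal cells, 7 of 12 dentate, 4 of 9 CA2, 3 of 7 CA1 and 1 of 8 CA3 markers were lower, against 6.21% of all genes. Differences between these lists were not tested. Among the 12 markers of dentate granule cells, 7 were lower and 1 was higher in enriched CBP-ifKOs, with a median log2 fold change of -0.65 against 0.0044 over all genes tested, and between 6 and 7 were lower and between 0 and 2 higher without any single mouse. There were 0 higher without CBP-ifKO_EE replicate 2 or 3 or Control_SC replicate 2 or 3 and 2 without CBP-ifKO_EE replicate 1. C1ql2, a C1q-like protein that mossy fibers secrete at their synapses (chr1:120340582-120343174, plus strand), stood at 72.7, 58.3 and 68.3 CPM in SC-housed controls and at 14.7, 18.0 and 18.0 CPM in enriched CBP-ifKOs. Every mutant lay far below the lowest control (log2 fold change -1.97 ± 0.14 (SE), adjusted p = 9.54e-07), and SC-housed CBP-ifKOs stood at 17.8, 22.2 and 25.6 CPM. Pdyn, the precursor of the opioid peptide dynorphin (chr2:129686565-129699844, minus strand), stood at 17.5, 13.3 and 17.1 CPM in controls and at 5.01, 5.55 and 5.58 CPM in enriched CBP-ifKOs (log2 fold change -1.57 ± 0.14 (SE), adjusted p = 7.5e-06). The level in SC-housed CBP-ifKOs was 5.26, 6.37 and 6.30 CPM, so that both groups of mutants lay below all controls and overlapped each other. Tdo2, the enzyme that opens the ring of tryptophan, was lower as well (log2 fold change -1.38 ± 0.14, adjusted p = 2.61e-05). The summed level of the 12 markers ranged from 554 to 620 CPM in Control_SC and from 462 to 489 CPM in CBP-ifKO_EE.

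Of 9 CA2 markers, 4 were lower. Rgs14, a regulator of G-protein signaling that restrains long-term potentiation in CA2 neurons, stood at 116, 109.6 and 106 CPM in SC-housed controls and at 44.7, 51.9 and 54.6 CPM in enriched CBP-ifKOs (log2 fold change -1.13 ± 0.07 (SE), adjusted p = 6.34e-07). Enriched and SC-housed mutants overlapped, the latter at 49.1, 54.6 and 50.9 CPM. Necab2, a neuronal calcium-binding protein, changed by -0.62 ± 0.08 (adjusted p = 0.000261). The number of lower CA2 markers was 2 without Control_SC replicate 1 or 3. For Pcp4 the call was lost without CBP-ifKO_EE replicate 1 and without Control_SC replicates 1 and 3 (adjusted p 0.0722 to 0.125), and for Ccdc3 the call was lost without CBP-ifKO_EE replicates 2 and 3 and without Control_SC replicates 1, 2 and 3 (adjusted p 0.0771 to 0.156). All 3 lower CA1 markers among 7 tested stayed lower without any single mouse. Wfs1, which encodes the endoplasmic reticulum protein wolframin, stood at 159, 142 and 114 CPM in controls and at 69.0, 70.8 and 83.4 CPM in enriched CBP-ifKOs (log2 fold change -0.89 ± 0.13 (SE), adjusted p = 0.000625), and Fibcd1 and Mpped1 changed by -0.59 ± 0.07 and -0.39 ± 0.06 (adjusted p = 0.000142 and 0.00117). Of 8 CA3 markers only Nectin3, an adhesion molecule, passed edgeR's test (-0.28 ± 0.07, adjusted p = 0.0193), and the call was lost without CBP-ifKO_EE replicates 2 and 3 and without Control_SC replicates 2 and 3 (adjusted p 0.0591 to 0.074). DESeq2 called 2 CA3 markers lower and 1 higher. With edgeR 2 were lower without Control_SC replicate 1 and 0 without CBP-ifKO_EE replicate 3 or Control_SC replicate 2. Without CBP-ifKO_EE replicate 1, 1 was lower and 1 higher. Summed levels ranged from 828 to 930 CPM in Control_SC against 643 to 667 CPM in CBP-ifKO_EE for the CA1 list, from 286 to 305 against 191 to 202 CPM for the CA2 list, and from 338 to 380 against 323 to 332 CPM for the CA3 list.

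**Figure D2:**
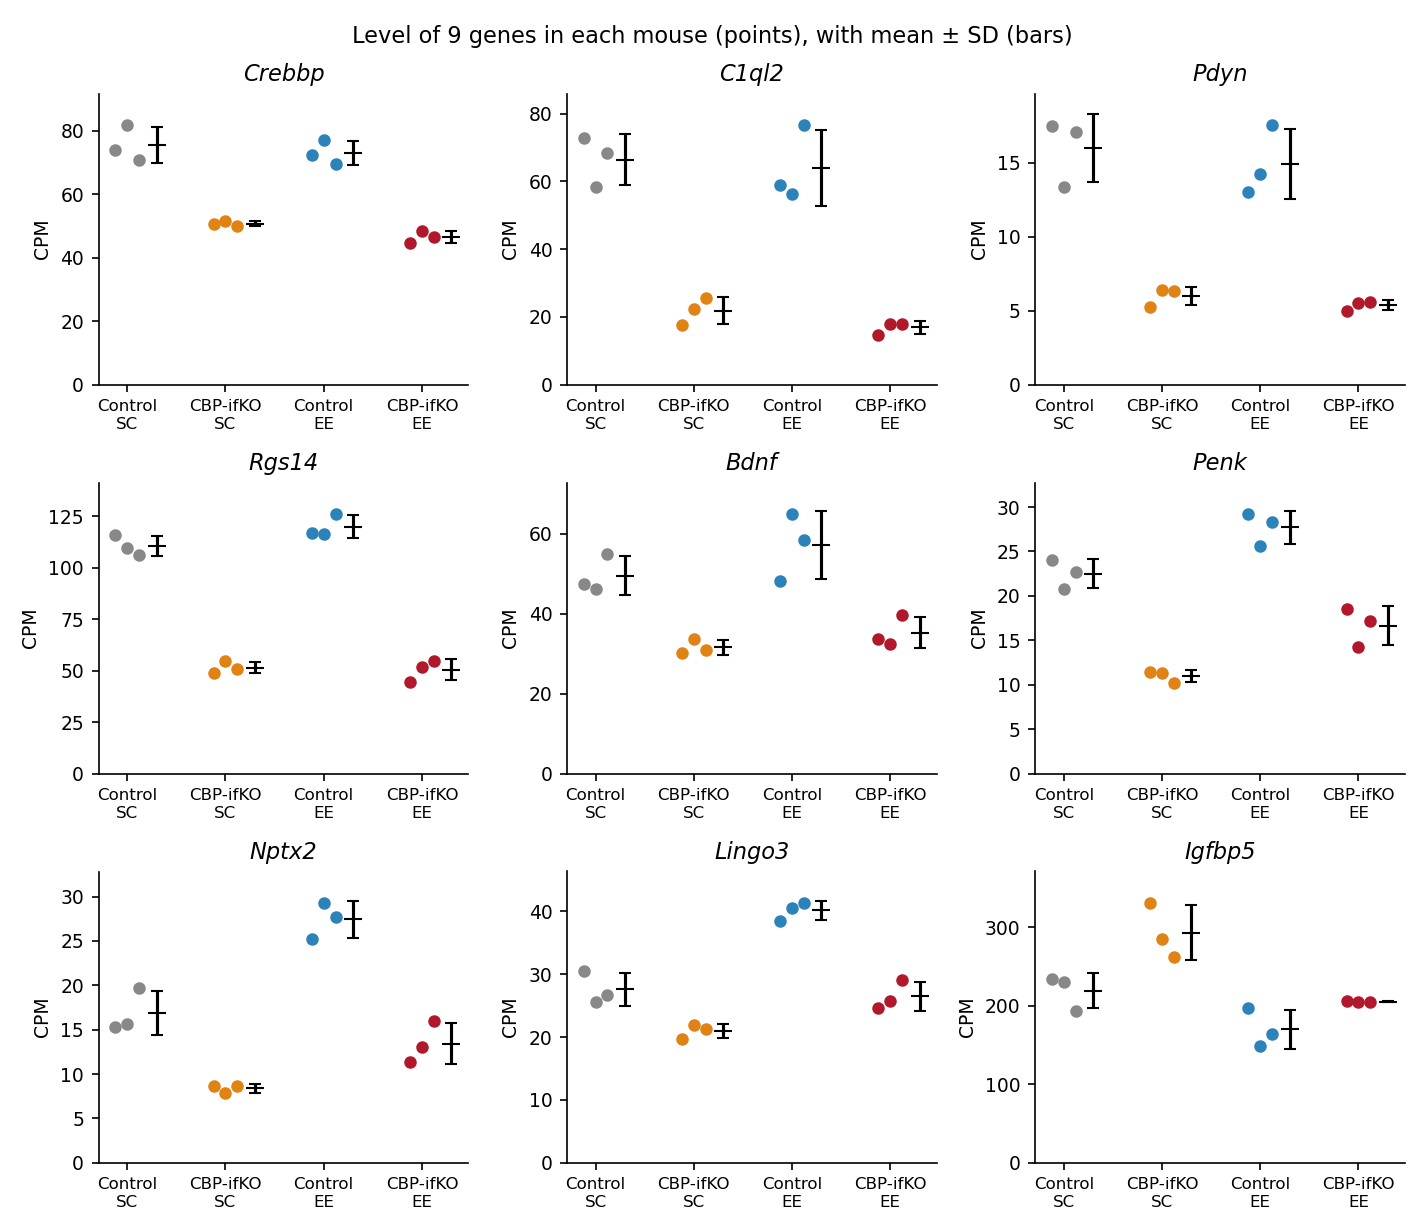
CPM (vertical axes, linear from 0) of 9 genes in each of the 12 mice of the 4 groups; points are mice, and bars give the mean and SD of 3 mice. C1ql2, Pdyn and Rgs14 lie low in both groups of CBP-ifKOs, Penk and Nptx2 lie between SC-housed CBP-ifKOs and SC-housed controls in the enriched CBP-ifKOs, and Lingo3 and Igfbp5 overlap the SC-housed controls there.

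Of 20 neuropeptide precursors, 6 were lower, Pdyn among them, 1 was higher and 13 did not pass the test, against 6.21% and 2.67% of all genes. Without Control_SC replicate 3, CBP-ifKO_EE replicate 1 or CBP-ifKO_EE replicate 2 the lower ones numbered 4, 4 and 3. Grp, the precursor of gastrin-releasing peptide, stood at 26.6, 25.1 and 28.1 CPM in SC-housed controls and at 20.4, 14.3 and 13.5 CPM in enriched CBP-ifKOs (log2 fold change -0.73 ± 0.13 (SE), adjusted p = 0.00274), with replicate 1 the highest of the mutants and still below every control. Cck, the cholecystokinin precursor, stood at 224, 181 and 196 CPM in controls and at 143, 147 and 167 CPM in enriched CBP-ifKOs (log2 fold change -0.39 ± 0.08 (SE), adjusted p = 0.0089). Vip, a marker of one class of interneurons, was the higher precursor (log2 fold change 0.34 ± 0.09 (SE), adjusted p = 0.0299). It stood at 23.9, 20.7 and 23.3 CPM in controls and at 30.3, 26.3 and 29.4 CPM in enriched CBP-ifKOs. The call was lost without CBP-ifKO_EE replicates 1 and 3 and without Control_SC replicates 2 and 3 (adjusted p 0.0621 to 0.107). Vip was also the only one of 15 interneuron markers that passed edgeR's test in either direction. DESeq2 called 1 lower and 1 higher.

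Calmodulin kinases carry calcium signals to the nucleus. Of 16 calmodulin kinase genes and their regulators, 8 were lower, 1 was higher and 7 did not pass the test, against 6.21% and 2.67% of all genes, and 7 or 8 were lower without any single mouse. Camkk1 and Camkk2, the upstream kinases that activate the calmodulin kinases I and IV, had the smallest p-values of the list. Camkk1 stood at 275, 245 and 261 CPM in SC-housed controls and at 148, 167 and 144 CPM in enriched CBP-ifKOs (log2 fold change -0.77 ± 0.06 (SE), adjusted p = 5.65e-06). Camkk2 stood at 171, 173 and 152 CPM in controls and at 98.3, 99.5 and 99.7 CPM in enriched CBP-ifKOs (log2 fold change -0.74 ± 0.06 (SE), adjusted p = 5.65e-06). In both genes the mutant mice lay close together and well below the lowest control. Camk1g, an isoform of calmodulin kinase I, and Camkv, a kinase-like vesicle protein without activity, changed by -0.70 ± 0.08 and -0.52 ± 0.06 (adjusted p = 5.3e-05 and 0.000105). Against the same controls, SC-housed CBP-ifKOs had log2 fold changes of -0.62 for Camkk1, -0.58 for Camkk2, -0.91 for Camk1g and -0.44 for Camkv. The median of the list was -0.23 in enriched and -0.25 in SC-housed CBP-ifKOs.

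Among 64 potassium channel genes, 18 were lower, against 6.21% of all genes, with a median of -0.19 in enriched and -0.16 in SC-housed CBP-ifKOs. The lower ones numbered between 15 and 17 without single mice other than CBP-ifKO_EE replicate 3, without which 11 were lower. Kcnip3, a calcium-binding subunit of Kv4 channels also known as the transcriptional repressor DREAM, stood at 105, 98.6 and 102 CPM in SC-housed controls and at 66.0, 66.4 and 63.6 CPM in enriched CBP-ifKOs (log2 fold change -0.64 ± 0.06 (SE), adjusted p = 2.27e-05). Kcnip2, another Kv4 subunit, stood at 253, 239 and 262 against 175, 174 and 165 CPM (log2 fold change -0.55 ± 0.06 (SE), adjusted p = 2.23e-05), and the groups of neither gene overlapped. Kcnq3, a subunit of the M-current channel, changed by -0.53 ± 0.08 (adjusted p = 0.000487).

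Of 34 receptors for monoamines and peptides, 9 were lower, against 6.21% of all genes, as for each receptor list here, with medians of -0.31 in enriched and -0.30 in SC-housed CBP-ifKOs. This count varied, from 4 without CBP-ifKO_EE replicate 3 or Control_SC replicate 3 and 5 without CBP-ifKO_EE replicate 2 or Control_SC replicate 1, to 11 without CBP-ifKO_EE replicate 1. Htr1a, the inhibitory serotonin 1A receptor, stood at 42.6, 49.1 and 42.9 CPM in SC-housed controls and at 27.5, 28.2 and 23.2 CPM in enriched CBP-ifKOs (log2 fold change -0.77 ± 0.11 (SE), adjusted p = 0.000344). The somatostatin receptors Sstr1, Sstr2 and Sstr3 changed by -0.85 ± 0.17, -0.68 ± 0.13 and -0.67 ± 0.10 (adjusted p = 0.00486, 0.00412 and 0.00049). Sstr3, which sits in neuronal cilia, stood at 49.4, 40.2 and 47.1 against 31.3, 29.0 and 25.3 CPM, without overlap. Among 22 glutamate receptor genes, 5 were lower, but 3 were lower without CBP-ifKO_EE replicate 1 or Control_SC replicate 2 and 2 without CBP-ifKO_EE replicate 3. Grm3, a metabotropic receptor, changed by -0.55 ± 0.09 (adjusted p = 0.00132). Of 14 GABA-A receptor subunits 2 were lower, of which Gabra5, the alpha 5 subunit of extrasynaptic receptors, stood at 244, 217 and 223 against 157, 177 and 165 CPM (log2 fold change -0.45 ± 0.06 (SE), adjusted p = 0.000172). The other was Gabrd (-0.47 ± 0.13, adjusted p = 0.0285), for which the call was lost without CBP-ifKO_EE replicates 1 and 2 and without Control_SC replicate 1 (adjusted p 0.0646 to 0.134).

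The lists of release and guidance genes are likewise read against the 6.21% of all genes that were lower. Of 36 release genes 10 were lower, with 7 to 10 lower without any single mouse and a median of -0.12 in enriched against -0.10 in SC-housed CBP-ifKOs. Cplx2, a complexin that clamps and promotes fusion, stood at 1488, 1493 and 1514 CPM in SC-housed controls and at 996, 1128 and 1005 CPM in enriched CBP-ifKOs (log2 fold change -0.52 ± 0.05 (SE), adjusted p = 2.07e-05). Sv2c, a synaptic vesicle glycoprotein, stood at 40.8, 43.4 and 34.7 against 17.2, 21.1 and 21.5 CPM (log2 fold change -0.99 ± 0.11 (SE), adjusted p = 4.76e-05). In both genes every mutant lay below every control. Of 62 Wnt and guidance genes 14 were lower, with a median of -0.20, and 9 were lower without CBP-ifKO_EE replicate 3. Efnb3, the ligand ephrin-B3, stood at 175, 171 and 175 CPM in controls and at 122, 120.2 and 116 CPM in enriched CBP-ifKOs (log2 fold change -0.54 ± 0.05 (SE), adjusted p = 1.94e-05). The Eph receptor Epha10 and the netrin receptor Unc5a changed by -0.61 ± 0.08 and -0.42 ± 0.06 (adjusted p = 0.000191 and 0.000527). Robo3 and Wnt9a, a guidance receptor and a Wnt ligand of the same list, did not pass the test. Robo3 stood at 32.0, 34.0 and 33.7 CPM in SC-housed controls and at 23.5, 35.1 and 32.1 CPM in enriched CBP-ifKOs (log2 fold change -0.14 ± 0.12 (SE), 95% interval -0.39 to 0.12), and Wnt9a at 10.4, 8.50 and 11.4 against 10.3, 6.62 and 8.93 CPM (-0.23 ± 0.17 (SE), -0.59 to 0.13). The groups overlapped for each gene, and both intervals reach beyond the 0.3 used below to call a level equal.

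The list published with the study as lower in CBP-ifKOs was chosen partly on these SC-housed mice and is not independent of them. Of its 192 genes, 163 were lower in enriched CBP-ifKOs, against 6.21% of all genes, with a median of -0.41 against -0.40 in SC-housed CBP-ifKOs. Of the 19 genes listed as higher, 13 were higher, against 2.67% of all genes, with medians of 0.38 and 0.47. Both contrasts use the same 3 controls.

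Genes that neurons induce with activity were examined next. Among 20 late response and plasticity genes, 9 were lower in enriched CBP-ifKOs (6.21% of all genes), with a median of -0.25, while in SC-housed CBP-ifKOs 12 were lower (3.93% of all genes) and the median was -0.38. The 9 became 5 without Control_SC replicate 3 and 6 without CBP-ifKO_EE replicate 2 or Control_SC replicate 2. Between the mutant groups, where their median was 0.17, 0 of the 20 passed with edgeR, 1 with DESeq2, and 9 had an unadjusted p under 0.05, as did 8.59% of all genes. Bdnf, the neurotrophin (chr2:109674700-109727007, plus strand), stood at 47.4, 46.1 and 55.0 CPM in SC-housed controls and at 33.6, 32.4 and 39.6 CPM in enriched CBP-ifKOs (log2 fold change -0.49 ± 0.10 (SE), adjusted p = 0.00822). All enriched mutants lay below all controls. SC-housed CBP-ifKOs stood at 30.1, 33.8 and 30.9 CPM and enriched controls at 48.1, 65.0 and 58.4 CPM. The exons of Bdnf overlap those of Gm45346 on the opposite strand, and whether counting used the strand is not given in the sources used here, so reads of the pair cannot be told apart. The same limit holds for Ccdc3, Cry2, Csf1r, Cx3cr1, Dcdc2b, Eif2ak2, Eogt, Epha10, Ftx, Gabra5, Man1a, Mfsd4a, Nrn1, Slc9a4, Sox4 and Unc5a, whose exons also overlap genes on the opposite strand. Plat, the tissue plasminogen activator, Rgs4, a brake on G-protein signaling, and Nrn1, the neurite-promoting protein neuritin, changed by -0.49 ± 0.08, -0.40 ± 0.08 and -0.29 ± 0.06 (adjusted p = 0.00104, 0.0045 and 0.00817).

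Of 20 immediate early genes, the transcription factors Jun, Nr4a2 and Egr3 were lower, against 6.21% of all genes. Nr4a2 stood at 74.4, 68.3 and 86.9 CPM in SC-housed controls and at 46.9, 49.6 and 57.2 CPM in enriched CBP-ifKOs (log2 fold change -0.58 ± 0.10 (SE), adjusted p = 0.00229), and Egr3 at 114, 102 and 129.5 against 69.2, 77.7 and 94.6 CPM (log2 fold change -0.52 ± 0.10 (SE), adjusted p = 0.00534). Jun, which shares exonic sequence with the antisense gene Junos, stood at 105, 90.2 and 121 against 72.0, 74.8 and 70.4 CPM (log2 fold change -0.54 ± 0.08 (SE), adjusted p = 0.000541). The genes most often read as markers of recent activity varied between mice within a group. Fos ranged from 4.83 to 47.3 CPM in SC-housed controls and from 5.22 to 35.6 CPM in enriched CBP-ifKOs (log2 fold change -0.05 ± 0.65 (SE), 95% interval -1.43 to 1.33), and the intervals of Arc and Npas4 ran from -0.65 to 0.99 and from -1.09 to 0.38. None of the 3 passed the test, except that Npas4 was lower without a filter on low counts (log2 fold change -0.37, adjusted p = 0.00447), and without Control_SC replicate 3 its log2 fold change was 0.13 (adjusted p = 0.882).

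To ask which genes stood at the control level without reusing mice, genes were chosen in CBP-ifKO_SC against Control_EE and read in the 6 mice of CBP-ifKO_EE against Control_SC, each in a fit of its own. The contrast that chose them combines genotype and housing. A gene chosen there need not have differed between SC-housed CBP-ifKOs and SC-housed controls, and how many did was not counted. Ftx, for example, did not pass that test (log2 fold change 0.09 ± 0.06 (SE), adjusted p = 0.395). A gene found level with the controls below has therefore not been shown to have returned there. A gene was called apart when it passed the test in the second contrast in the same direction, and at the control level when its 95% interval lay within 0.3 of 0 on the log2 scale, a difference of less than 1.23-fold. Of 17254 genes tested in both fits, 818 were lower (4.74%) and 341 were higher (1.98%) in the choosing contrast. Of the 818 lower genes, 357 (43.6%) were apart in enriched CBP-ifKOs, against 4.86% of all genes that were lower there, and they were 42.6% of the 838 lower genes of that contrast. Another 173 (21.1%) stood at the control level, a smaller share than the 34.8% of all genes whose interval met this bound. A further 285 (34.8%) met neither criterion, and 3 passed the test in the opposite direction. The median log2 fold change of the 818 genes was -0.37 in the choosing contrast and -0.27 in enriched CBP-ifKOs against SC-housed controls, and 756 kept the sign. Choosing genes by their test in a contrast makes their change there larger on average. The smaller median in the other mice is therefore not read as a return toward the controls.

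Of the 341 higher genes, 91 (26.7%) were apart, against 2.16% of all genes that were higher, and they were 24.4% of the 373 higher genes of that contrast. At the control level were 97 (28.4%), and 152 (44.6%) met neither criterion, with 1 gene changed in the opposite direction. Their median was 0.36 in the choosing contrast and 0.21 in enriched CBP-ifKOs, with the same limit from the choice of genes, and 307 kept the sign. Single mice moved these counts. The lower genes that were apart numbered 203 without CBP-ifKO_EE replicate 3 and 222 without Control_SC replicate 3, and the higher genes that were apart ranged from 34 to 89, with 34 without CBP-ifKO_EE replicate 3 or Control_SC replicate 3, 40 without CBP-ifKO_EE replicate 2, 55 without CBP-ifKO_EE replicate 1 and 57 without Control_SC replicate 1. At the control level were 114 lower genes without CBP-ifKO_EE replicate 2, and 39 higher genes without the Control_EE mouse in which choroid plexus genes were high. A wider bound of 0.5 placed 461 lower and 222 higher genes at the control level, and 62.1% of all genes met it.

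**Figure D3:**
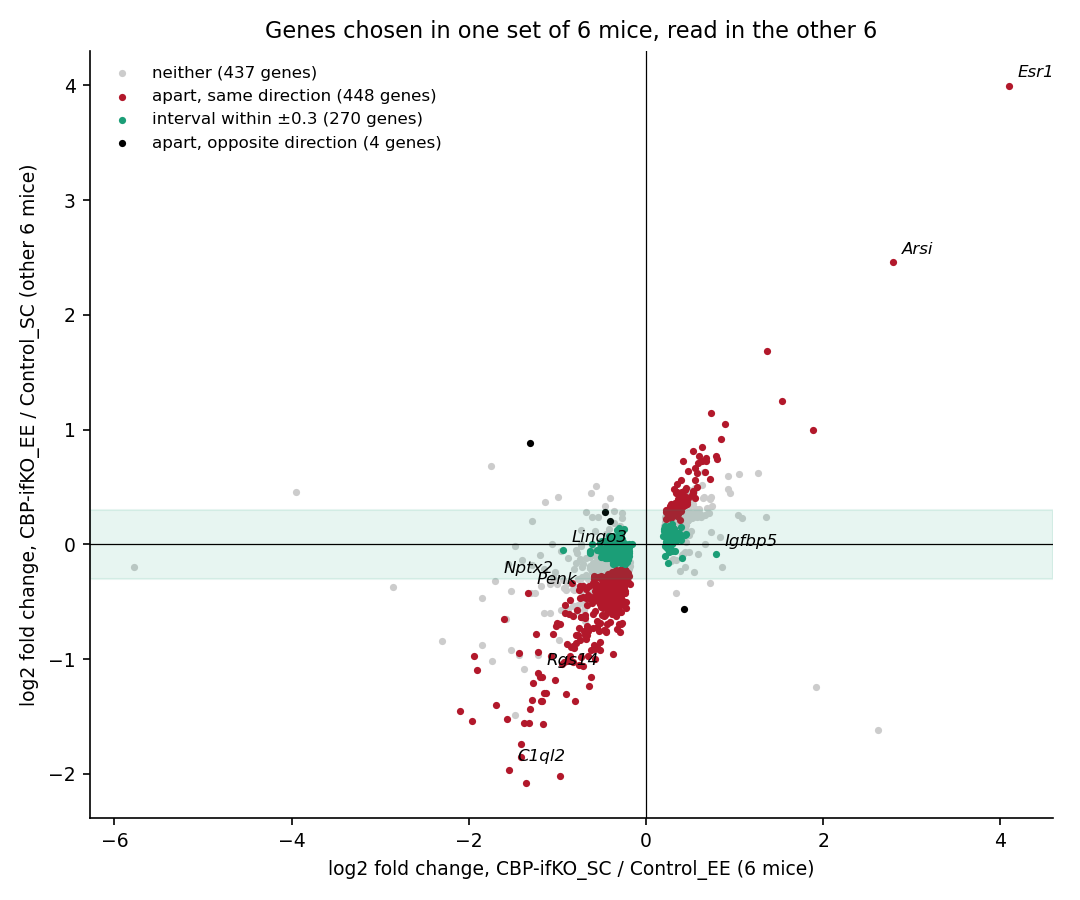
Log2 fold change of the chosen genes in CBP-ifKO_SC against Control_EE (horizontal axis) and in CBP-ifKO_EE against Control_SC (vertical axis), 2 comparisons with no mouse in common; each point is a gene, colored by whether it was apart, within the 0.3 bound, opposite or neither. The 448 genes apart in the same direction lie mostly along the diagonal, and the 270 genes within the bound form a band around 0 on the vertical axis.

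The genes at the control level with the largest difference in the choosing contrast are given as a description, since their values chose them. The 6 lower ones were Lingo3, Mlip, Man1a, Mfsd4a, Ptgs2 and Tfrc. Lingo3, a leucine-rich repeat membrane protein of the family that holds the Nogo co-receptor Lingo1 (chr10:80832801-80844039, minus strand), stood at 30.5, 25.5 and 26.6 CPM in SC-housed controls and at 24.5, 25.7 and 29.1 CPM in enriched CBP-ifKOs, and the groups overlapped (log2 fold change -0.06 ± 0.08 (SE), 95% interval -0.23 to 0.11). SC-housed CBP-ifKOs stood below both, at 19.7, 21.9 and 21.3 CPM, and enriched controls above, at 38.5, 40.5 and 41.4 CPM. Tfrc, the transferrin receptor, stood at 141, 156 and 143 CPM in SC-housed controls, 130.4, 151 and 142 CPM in enriched CBP-ifKOs, 106, 117 and 131 CPM in SC-housed CBP-ifKOs and 166, 196 and 159 CPM in enriched controls. Ptgs2, the inducible cyclooxygenase that neurons express after activity, stood at 30.4, 34.5 and 32.2 CPM in SC-housed controls and at 34.7, 29.9 and 31.9 CPM in enriched CBP-ifKOs, against 22.4, 27.1 and 29.9 CPM in SC-housed CBP-ifKOs and 37.5, 48.2 and 36.1 CPM in enriched controls. In each of these 3 genes the enriched controls lay above all other mice, and the enriched mutants overlapped the SC-housed controls.

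On the other side were Igfbp5, Abca7, Wdcp, Ftx, Scrib and Sirt4. Igfbp5, a secreted protein that binds insulin-like growth factors (chr1:72857932-72874884, minus strand), stood at 235, 230.00 and 193 CPM in SC-housed controls and at 206, 204 and 205 CPM in enriched CBP-ifKOs (log2 fold change -0.10 ± 0.10 (SE), 95% interval -0.31 to 0.11 with all 12 mice and -0.24 to 0.07 in the fit of 6 mice, which placed it within the bound). SC-housed CBP-ifKOs were higher, at 331, 285 and 263 CPM, without overlap with either group, and enriched controls stood at 197, 149 and 163 CPM. The difference between the mutant groups was -0.51 ± 0.10 (unadjusted p = 9.98e-05, adjusted p = 0.121 with edgeR and 0.000433 with DESeq2). Abca7, a lipid transporter, stood at 34.2, 33.9 and 28.5 CPM in enriched CBP-ifKOs, against 31.0, 32.5 and 28.1 CPM in SC-housed controls, and the groups overlapped. Scrib, a polarity protein, met the bound although its groups did not overlap (log2 fold change 0.14 ± 0.05 (SE)). It stood at 53.8, 50.4 and 51.9 CPM in SC-housed controls and at 58.0, 57.4 and 57.0 CPM in enriched CBP-ifKOs. The groups of Ftx did not overlap either, at 109, 120 and 112 CPM in SC-housed controls and 108, 102 and 101 CPM in enriched CBP-ifKOs (-0.13 ± 0.06 (SE)). Both genes show that the bound tolerates a small difference.

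Penk and Nptx2 lay between the SC-housed mutants and the controls. Penk, the enkephalin precursor (chr4:4133531-4138819, minus strand), stood at 24.0, 20.8 and 22.6 CPM in SC-housed controls, 11.4, 11.4 and 10.2 CPM in SC-housed CBP-ifKOs and 18.6, 14.3 and 17.2 CPM in enriched CBP-ifKOs, with no overlap among the 3 groups, while enriched controls stood at 29.2, 25.6 and 28.3 CPM. Against SC-housed controls it was lower in enriched CBP-ifKOs (log2 fold change -0.43 ± 0.10 (SE), adjusted p = 0.012), and the call was lost without CBP-ifKO_EE replicate 2 and without Control_SC replicate 1 (adjusted p 0.0517 to 0.0528). In SC-housed CBP-ifKOs its log2 fold change against the same controls was -1.03 ± 0.10 (SE). The difference between the mutant groups was 0.60 ± 0.10 (unadjusted p = 2.19e-05, adjusted p = 0.0933 with edgeR and 0.000245 with DESeq2). Exons of Penk overlap A830012C17Rik on the opposite strand. Nptx2, a secreted pentraxin that gathers AMPA receptors at synapses onto interneurons (chr5:144545902-144557478, plus strand), stood at 15.3, 15.6 and 19.7 CPM in SC-housed controls, 8.67, 7.82 and 8.63 CPM in SC-housed CBP-ifKOs, 11.3, 13.0 and 15.9 CPM in enriched CBP-ifKOs and 25.2, 29.3 and 27.7 CPM in enriched controls. Enriched CBP-ifKO replicate 3 lay within the control range, and the other enriched mutants lay below it and above all SC-housed mutants. Nptx2 did not pass the test against SC-housed controls (log2 fold change -0.33 ± 0.12 (SE), adjusted p = 0.111; 95% interval -0.60 to -0.07), but did without a filter on low counts (adjusted p = 0.0199) and without CBP-ifKO_EE replicate 3 (adjusted p = 0.038). The difference between the mutant groups was 0.68 ± 0.13 (unadjusted p = 7.76e-05, adjusted p = 0.121 with edgeR and 0.000834 with DESeq2). Its paralog Nptx1 was lower in enriched CBP-ifKOs, at 546, 665 and 582 CPM against 762, 746 and 742 CPM in SC-housed controls (log2 fold change -0.33 ± 0.07 (SE), adjusted p = 0.00699). SC-housed CBP-ifKOs overlapped these controls, at 708, 763 and 671 CPM.

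**Figure D4:**
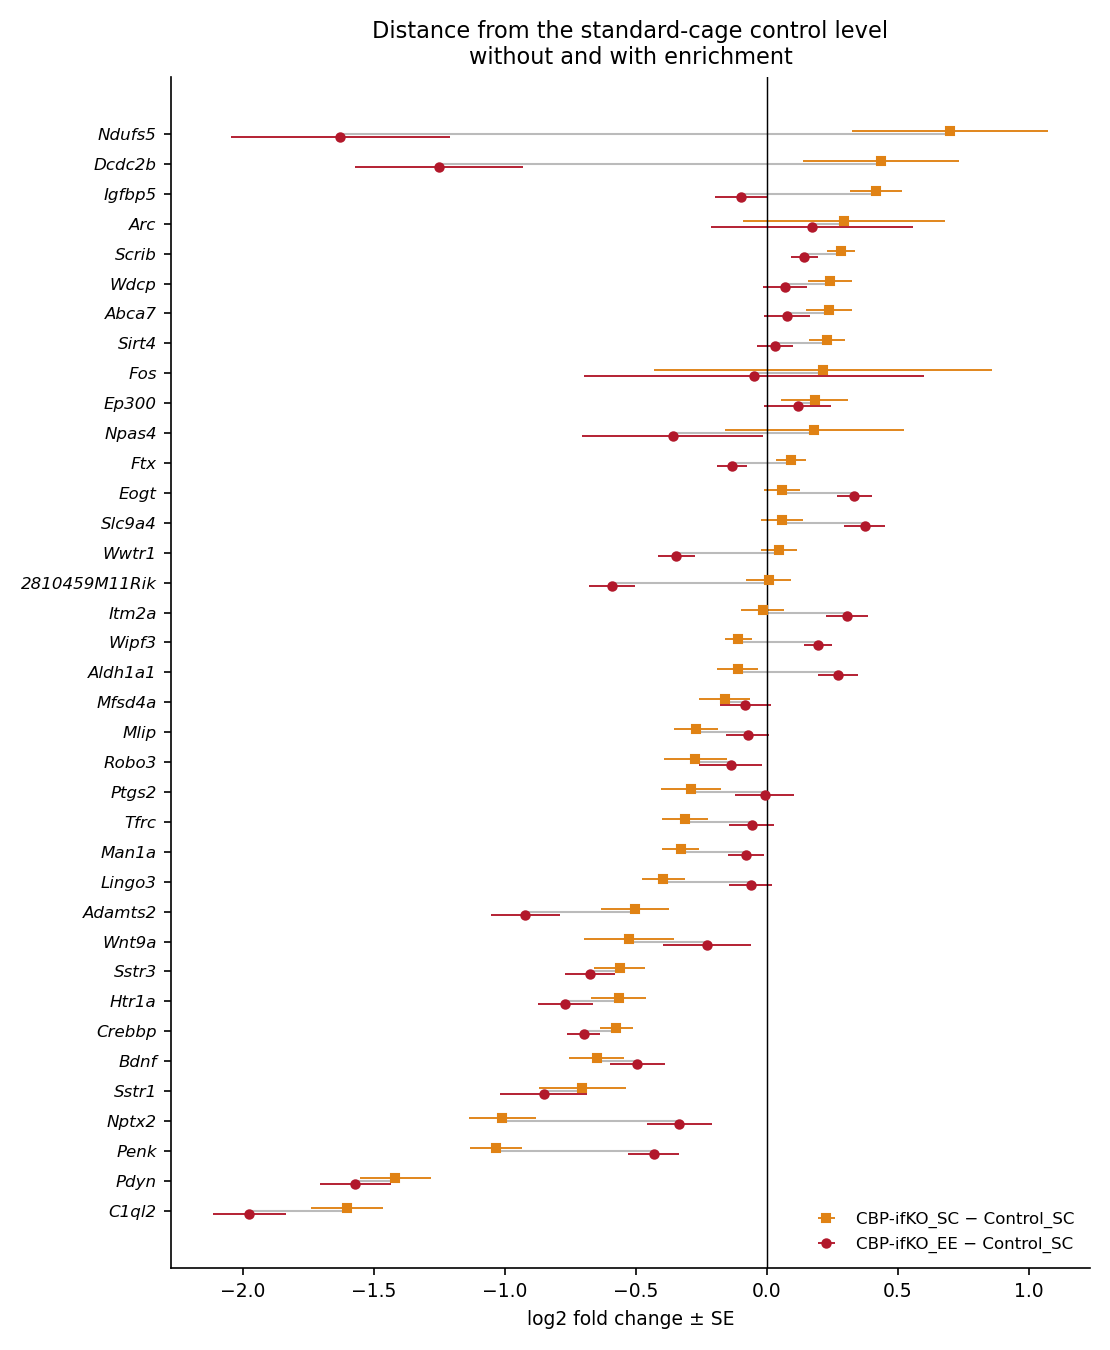
Log2 fold change against Control_SC (horizontal axis; points with SE bars) of CBP-ifKO_SC and of CBP-ifKO_EE for genes of the study and genes chosen for their level or their difference between the mutant groups; both contrasts use the same 3 control mice. Penk and Nptx2 lie nearer to 0 in enriched CBP-ifKOs, C1ql2, Pdyn and Adamts2 lie further from it, and 2810459M11Rik and Wwtr1 lie below 0 in enriched and near 0 in SC-housed CBP-ifKOs.

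The 2 contrasts of separate mice were also read the other way round. Here 181 (21.6%) of the 838 genes lower and 104 (27.9%) of the 373 genes higher in the 6 mice of CBP-ifKO_EE against Control_SC had an interval within 0.3 in CBP-ifKO_SC against Control_EE, shares below the 36.0% of all genes that met this bound. Wwtr1, which encodes the transcriptional coactivator TAZ of the Hippo pathway, stood at 21.7, 21.9 and 22.7 CPM in SC-housed controls, 22.5, 23.8 and 22.2 CPM in SC-housed CBP-ifKOs and 17.3, 18.0 and 16.9 CPM in enriched CBP-ifKOs, below all others (log2 fold change -0.34 ± 0.07 (SE), adjusted p = 0.00586). With CBP-ifKO counts divided by 2 and thinned to equal depth this call was lost (-0.26, adjusted p = 0.0541). Wwtr1 was named for the size of its p between the mutant groups, where its log2 fold change was -0.39 ± 0.07 (SE) (adjusted p = 0.0933 with edgeR and 0.00187 with DESeq2). By the same rule came Eogt, a glycosyltransferase, and Slc9a4, a sodium-proton exchanger, which were higher in enriched CBP-ifKOs than in SC-housed controls (0.33 ± 0.07 and 0.37 ± 0.08, adjusted p = 0.00619 and 0.00768). The gene with the largest change of those within the bound in CBP-ifKO_SC against Control_EE was Nos1, the neuronal nitric oxide synthase, named after its values were seen. It stood at 144, 173 and 146 CPM in SC-housed controls, 116, 119 and 109 CPM in SC-housed CBP-ifKOs, 112, 139 and 127 CPM in enriched controls and 84.5, 88.7 and 73.0 CPM in enriched CBP-ifKOs (log2 fold change -0.91 ± 0.09 (SE), adjusted p = 2.12e-05). The enriched mutants were the lowest of the 12 mice, and SC-housed CBP-ifKOs and enriched controls overlapped. Between the mutant groups the log2 fold change of Nos1 was -0.48 ± 0.09 (adjusted p = 0.121 with edgeR and 0.000373 with DESeq2). Oxtr, the oxytocin receptor, also named after its values were seen, stood at 13.1, 13.6 and 15.2 CPM in SC-housed controls and 9.04, 9.40 and 7.28 CPM in enriched CBP-ifKOs (log2 fold change -0.70 ± 0.11 (SE), adjusted p = 0.00098), and at 10.6, 10.5 and 9.69 and 11.8, 10.4 and 10.2 CPM in the SC-housed CBP-ifKOs and the enriched controls. Against SC-housed controls both genes were also lower in SC-housed CBP-ifKOs (-0.43 ± 0.09 for Nos1 and -0.44 ± 0.11 for Oxtr, adjusted p = 0.0114 and 0.0276). Exons of Nos1 overlap Gm26995 on the opposite strand.

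For 4 genes the sign turned between the comparisons of separate mice, and they were named after their values were seen. Aldh1a1, a retinaldehyde dehydrogenase, was lower in CBP-ifKO_SC against Control_EE (-0.46) and higher in CBP-ifKO_EE against Control_SC. It stood at 59.0, 57.2 and 56.7 CPM in SC-housed controls, 53.4, 57.6 and 49.2 CPM in SC-housed CBP-ifKOs, 69.2, 76.3 and 75.0 CPM in enriched controls and 61.5, 73.1 and 74.4 CPM in enriched CBP-ifKOs. The mice in EE of either genotype lay above the mice in SC. The change against SC-housed controls was small (log2 fold change 0.27 ± 0.08 (SE), adjusted p = 0.0345), and the call was lost without CBP-ifKO_EE replicates 2 and 3 and without Control_SC replicates 1, 2 and 3 (adjusted p 0.0659 to 0.152). Wipf3, an actin regulator whose exons overlap Scrn1 on the opposite strand, had the same order, at 386, 384 and 376 CPM in SC-housed controls, 359, 369 and 335 CPM in SC-housed CBP-ifKOs, 442, 499 and 477 CPM in enriched controls and 439, 433 and 441 CPM in enriched CBP-ifKOs (log2 fold change 0.20 ± 0.05 (SE), adjusted p = 0.0292), and the call was lost without CBP-ifKO_EE replicates 1, 2 and 3 and without Control_SC replicates 1, 2 and 3 (adjusted p 0.0553 to 0.0963). BC002163 was the third, and St3gal1, a sialyltransferase, turned the other way, at 46.3, 47.4 and 37.3 CPM in SC-housed controls and 30.6, 32.6 and 24.7 CPM in enriched CBP-ifKOs (log2 fold change -0.57 ± 0.12 (SE), adjusted p = 0.00947). Ndufs5 and Dcdc2b, a respiratory chain subunit and a doublecortin domain gene, were lower in enriched CBP-ifKOs, but rest on an uneven control group. Ndufs5 stood at 4.08, 0.793 and 3.88 CPM in SC-housed controls and 1.14, 0.641 and 1.06 CPM in enriched CBP-ifKOs (log2 fold change -1.63 ± 0.42 (SE), adjusted p = 0.0238), and Dcdc2b at 6.05, 1.85 and 5.12 against 2.43, 1.44 and 1.59 CPM (log2 fold change -1.25 ± 0.32 (SE), adjusted p = 0.023). Control_SC replicate 2 lay in the range of the enriched mutants for both. With only the 6 mice of these groups in the fit neither passed (adjusted p = 0.0626 for Ndufs5 and 0.0612 for Dcdc2b). SC-housed CBP-ifKOs stood at 4.07, 5.95 and 4.29 CPM for Ndufs5 and 6.46, 5.19 and 5.99 CPM for Dcdc2b. Enriched controls stood at 0.698, 0.849 and 0.768 and 1.84, 1.51 and 1.32 CPM. The mice in EE were thus low in both genotypes. Between the mutant groups the log2 fold changes were -2.33 ± 0.41 and -1.69 ± 0.31 (adjusted p = 0.0933 and 0.121 with edgeR, 6.31e-05 and 0.000297 with DESeq2). For Ndufs5 the call was lost without CBP-ifKO_EE replicates 2 and 3 and without Control_SC replicates 1 and 3 (adjusted p 0.067 to 0.107), and for Dcdc2b the call was lost without CBP-ifKO_EE replicates 2 and 3 and without Control_SC replicates 1 and 3 (adjusted p 0.0915 to 0.113).

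The largest changes against SC-housed controls among protein-coding genes without overlap between the groups were mostly in genes of low expression. Aldh1a3, another retinaldehyde dehydrogenase, was the largest decrease, at 1.22, 1.59 and 1.71 CPM in controls and 0.103, 0.267 and 0.117 CPM in enriched CBP-ifKOs, with replicates 1 and 3 below the level of 3 counts after division by 2 (log2 fold change -3.18 ± 0.38 (SE), adjusted p = 0.000109), with SC-housed CBP-ifKOs in between at 0.418, 0.554 and 0.477 CPM. Otof, the calcium sensor otoferlin, stood at 9.24, 10.3 and 10.4 CPM in controls and 2.43, 2.51 and 2.41 CPM in enriched CBP-ifKOs (log2 fold change -2.03 ± 0.19 (SE), adjusted p = 1.44e-05), against 5.44, 4.50 and 3.07 CPM in SC-housed CBP-ifKOs, where no enriched mutant reached the lowest SC-housed one. Neither passed edgeR's test between the mutant groups (adjusted p = 0.373 and 0.31), while DESeq2 called Otof lower in the enriched mutants (adjusted p = 0.0356) and did not call Aldh1a3. Psrc1, a microtubule regulator, stood at 19.5, 17.3 and 19.2 against 6.92, 5.50 and 6.34 CPM (log2 fold change -1.58 ± 0.14 (SE), adjusted p = 7.33e-06), and Adamts13, the protease that cleaves von Willebrand factor, at 1.19, 1.51 and 1.56 against 0.413, 0.267 and 0.352 CPM (log2 fold change -2.03 ± 0.31 (SE), adjusted p = 0.000726). Adamts2, a procollagen protease, stood at 16.8, 15.9 and 17.7 CPM in SC-housed controls, 11.8, 11.0 and 12.7 CPM in SC-housed CBP-ifKOs, 12.5, 8.26 and 8.74 CPM in enriched controls and 9.35, 9.24 and 8.05 CPM in enriched CBP-ifKOs (log2 fold change -0.92 ± 0.13 (SE), adjusted p = 0.000459). Among the increases after Esr1 and Arsi, Cchcr1, a coiled-coil centrosomal protein, stood at 3.56, 3.63 and 3.38 against 6.51, 8.22 and 7.05 CPM (log2 fold change 1.04 ± 0.12 (SE), adjusted p = 9.23e-05), and Dna2, a nuclease and helicase of DNA replication, at 1.26, 2.30 and 2.14 against 4.08, 4.54 and 3.94 CPM (log2 fold change 1.14 ± 0.20 (SE), adjusted p = 0.0021). Has1, a hyaluronan synthase, stood at 0.520, 0.453 and 0.436 CPM in controls and 1.45, 1.55 and 1.23 CPM in enriched CBP-ifKOs (log2 fold change 1.58 ± 0.28 (SE), adjusted p = 0.00289).

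The lists of glia and other cells are read against the 6.21% of all genes that were lower and the 2.67% that were higher. Of 13 astrocyte markers 3 were lower. Sox9, the transcription factor of astrocytes and neural stem cells, stood at 31.9, 39.0 and 33.4 CPM in SC-housed controls, 28.5, 27.2 and 30.9 CPM in SC-housed CBP-ifKOs and 22.0, 21.1 and 22.2 CPM in enriched CBP-ifKOs, where it was the lowest (log2 fold change -0.68 ± 0.08 (SE), adjusted p = 9.88e-05). The others were the glutamate transporter Slc1a3 and the connexin Gja1, for which the call was lost without CBP-ifKO_EE replicates 2 and 3 and without Control_SC replicate 2 (adjusted p 0.0601 to 0.077) and the call was lost without CBP-ifKO_EE replicates 1 and 2 and without Control_SC replicates 2 and 3 (adjusted p 0.0516 to 0.0647), respectively. The summed astrocyte level ranged from 5530 to 6180 CPM in Control_SC and from 5030 to 5150 CPM in CBP-ifKO_EE. Of 13 markers of new neurons and dividing cells, Sox11, Sox4 and Calb2 were lower. The neurogenic transcription factor Sox11 stood at 20.6, 20.1 and 22.8 against 15.1, 14.9 and 13.5 CPM (log2 fold change -0.55 ± 0.08 (SE), adjusted p = 0.000726), and Sox4 changed by -0.44 ± 0.08 (adjusted p = 0.00285). For Calb2 the call was lost without CBP-ifKO_EE replicates 2 and 3 and without Control_SC replicate 3 (adjusted p 0.0655 to 0.0974). Of 13 microglial markers Cx3cr1 and Csf1r were lower. For the fractalkine receptor Cx3cr1 the call was lost without CBP-ifKO_EE replicates 1 and 3 (adjusted p 0.0512 to 0.0594), and for Csf1r the call was lost without CBP-ifKO_EE replicates 1, 2 and 3 and without Control_SC replicates 1, 2 and 3 (adjusted p 0.0526 to 0.0917). Of 14 oligodendrocyte markers Cspg4, a proteoglycan of their precursors, was lower, and the call was lost without CBP-ifKO_EE replicates 2 and 3 and without Control_SC replicates 1, 2 and 3 (adjusted p 0.0672 to 0.166). With edgeR 0 of 13 endothelial and mural, 14 choroid plexus and 9 meningeal genes passed the test, and unadjusted p-values under 0.05 were found for 5, 0 and 1 of them and for 22.5% of all genes. DESeq2 called 1 lower and 1 higher endothelial or mural gene and 0 in the other lists. Without CBP-ifKO_EE replicate 2 or Control_SC replicate 2, edgeR called 1 lower endothelial or mural gene. Without CBP-ifKO_EE replicate 1 it called 1 lower meningeal gene.

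Of 16 clock genes 5 were lower, against 6.21% of all genes lower and 2.67% higher, as for each list that follows. The 5 became 3 without Control_SC replicate 1 or 3. Hlf, a clock output transcription factor, stood at 178, 174 and 153 CPM in SC-housed controls and at 134, 121 and 127 CPM in enriched CBP-ifKOs (log2 fold change -0.40 ± 0.08 (SE), adjusted p = 0.00437), and Cry2, a repressor of the clock, at 145, 133 and 147 against 122, 114 and 118 CPM (log2 fold change -0.26 ± 0.05 (SE), adjusted p = 0.00617). The hours of dissection are not given in the sources used here. Of 14 glucocorticoid-related genes, with a median of 0.08, Pdk4 was lower with edgeR, although the call was lost without CBP-ifKO_EE replicates 1, 2 and 3 and without Control_SC replicate 2 (adjusted p 0.0564 to 0.109). DESeq2 called 2 lower and 1 higher. Without single mice edgeR called between 0 and 2 lower and between 0 and 3 higher. There were 3 higher without CBP-ifKO_EE replicate 2 and 2 in each direction without Control_SC replicate 3. Of 19 interferon-stimulated genes Eif2ak2 and Zc3hav1 were higher, and for the former the call was lost without CBP-ifKO_EE replicate 2 and without Control_SC replicate 1 (adjusted p 0.0712 to 0.0792), while for the latter the call was lost without CBP-ifKO_EE replicates 1 and 2 and without Control_SC replicates 1 and 3 (adjusted p 0.0736 to 0.106). With CBP-ifKO counts divided by 2 and thinned the log2 fold change of Zc3hav1 fell to 0.155 (adjusted p = 0.434). Its call was also lost with no filter (adjusted p = 0.059) and with only the 6 mice (adjusted p = 0.0602). Of 32 acetyltransferases, deacetylases and CREB factors, 4 were lower and 1 was higher, and the lower count fell to 2 without CBP-ifKO_EE replicate 1 or 3 and without Control_SC replicate 2 or 3. Besides Crebbp the lower genes included Crtc1, the calcium-regulated coactivator of CREB, at 289, 278 and 268 CPM in controls and 184, 217 and 189 CPM in enriched CBP-ifKOs (log2 fold change -0.50 ± 0.06 (SE), adjusted p = 0.000172), with SC-housed CBP-ifKOs between them at 246, 239 and 223 CPM. The higher one was Hdac3, for which the call was lost without CBP-ifKO_EE replicate 1 and without Control_SC replicates 2 and 3 (adjusted p 0.0523 to 0.0745).

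**Figure D5:**
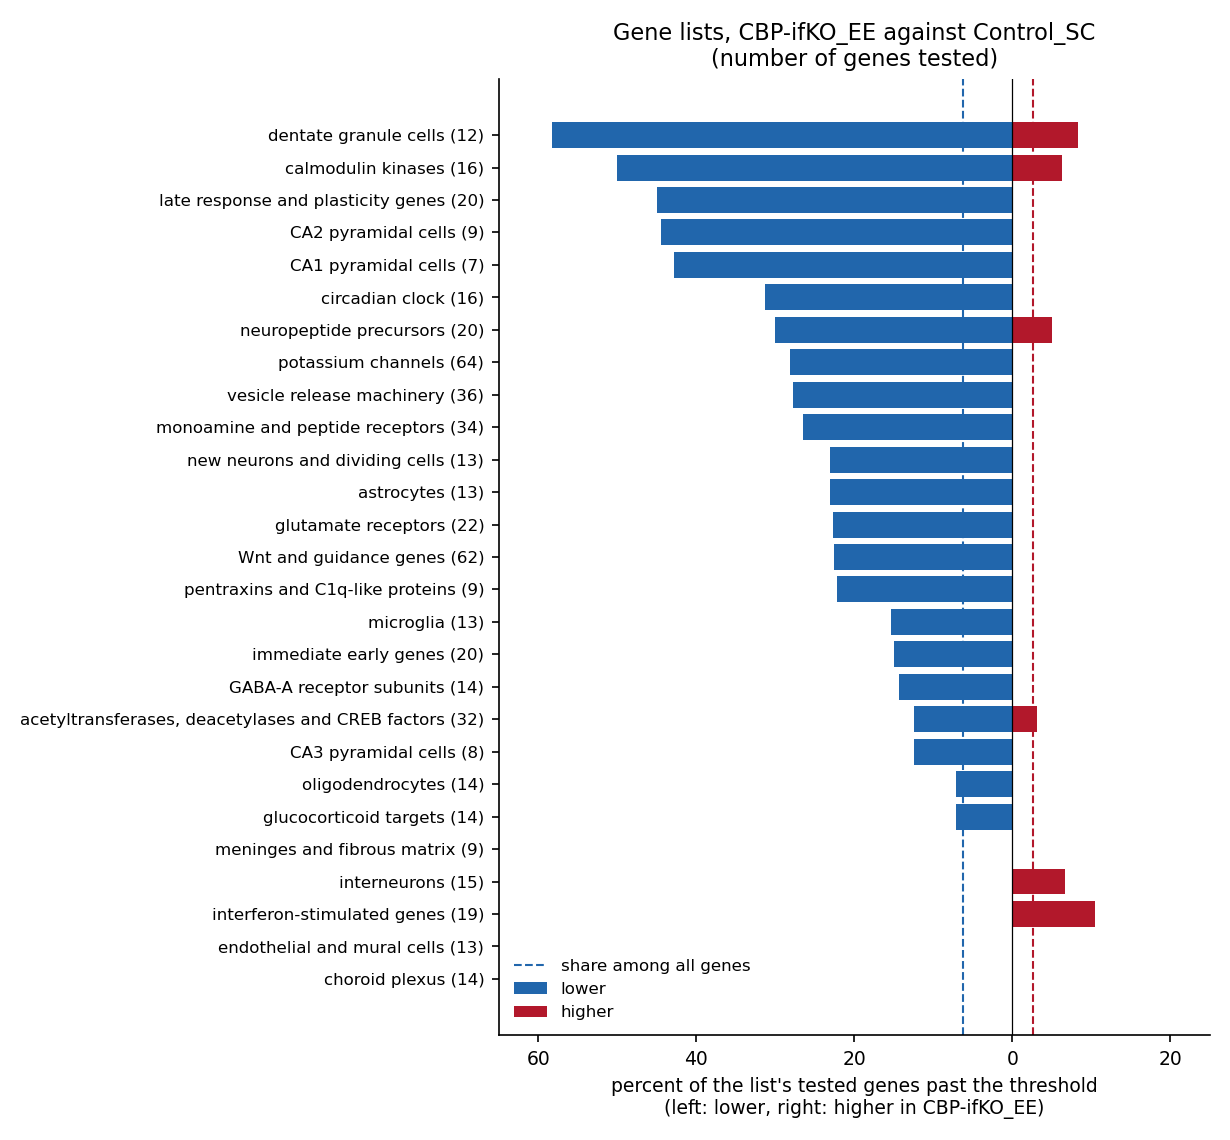
Percentage of the tested genes of each list that were lower (left) or higher (right) in CBP-ifKO_EE than in Control_SC at an adjusted p-value under 0.05 (horizontal axis), with the number of genes; dashed lines give the shares over all genes, 6.21% and 2.67%. The dentate and calmodulin kinase lists have 7 of 12 and 8 of 16 genes lower, and the endothelial, choroid plexus and meningeal lists have no bar.

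CBP is recruited to promoters by phosphorylated CREB, which binds the cAMP response element, so promoters were searched for the element TGACGTCA and its core TGACG, on either strand, in the 250 bases before to 50 bases after each annotated transcript start (RefSeq, GRCm38.p6). A gene with several starts has several windows and counts as holding a motif when any of them does, and there were 1.40 windows per lower, 1.24 per higher and 1.28 per tested gene. Every full element also contains the core. At least 1 window was found for 12734 genes tested. The full element was held by 26 of 819 genes lower in enriched CBP-ifKOs (3.17%), by 13 of 384 higher genes (3.39%) and by 417 of all 12734 (3.27%). The core was found in 27.2%, 36.7% and 32.8% of them. Among the genes chosen as lower in the other 6 mice, the full element was present in 2.38% of the 252 that were apart and in 4.32% of the 139 at the control level, and the core in 25.8% and 38.1%. These shares are descriptions of the letters in this window. Among the genes described above, Hlf, Sstr2 and Has1 held the full element before a start, and it is shown in capitals with the bases around it, 5′ to 3′ on the strand of the gene.
Hlf (chr11:90390918-90390952, minus strand): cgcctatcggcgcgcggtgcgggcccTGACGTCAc
Sstr2 (chr11:113619243-113619302, plus strand): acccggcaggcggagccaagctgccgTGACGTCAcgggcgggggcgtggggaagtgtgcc
Has1 (chr17:17855238-17855297, minus strand): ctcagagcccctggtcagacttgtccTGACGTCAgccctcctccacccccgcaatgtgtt
Hlf and Sstr2 were lower and Has1 was higher in enriched CBP-ifKOs, so the element occurred in windows of genes that changed in opposite directions. Sstr2 stood at 10.2, 8.95 and 9.62 CPM in SC-housed controls and at 6.72, 5.50 and 5.70 CPM in enriched CBP-ifKOs (log2 fold change -0.68 ± 0.13 (SE), adjusted p = 0.00412). Of the genes of interest in the study, Bdnf, Sstr3, Fos and Npas4 held the core before a start without the full element, and the latter 2 did not pass the test. The windows of Bdnf and Sstr3 are shown, and that of Bdnf belongs to an internal transcript start.
Bdnf (chr2:109692375-109692431, plus strand): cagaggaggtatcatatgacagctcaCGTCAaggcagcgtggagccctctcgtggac
Sstr3 (chr15:78544346-78544380, minus strand): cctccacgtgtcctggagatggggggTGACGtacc
In Bdnf the capitals give the core as read on the other strand.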

How the data were processed

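Hippocampal RNA of 12 mice, 3 in each of 4 groups, was sequenced as 50 bp single-end reads in 2 runs per mouse. Reads were trimmed by the authors with Trim Galore 0.6.4 and aligned to mm10 with STAR 2.6.1. Alignments of a mapping quality over 10 were assigned to exons (Rsubread, Ensembl genes of GRCm38), and the runs of a mouse were merged. The authors deposited the resulting raw counts, which carry no normalization, for 55471 genes (55144 with a symbol). Trimming, alignment and counting are thus fixed in the values, and the strand setting is not given in the sources used here. The groups hold separate mice, and p-values set the difference of group means against the spread between mice within groups.

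Groups were compared in edgeR 4.0.16 (R 4.3.3) after its expression filter and TMM, by the quasi-likelihood F test with Benjamini-Hochberg adjustment at 0.05, with 1 coefficient per group and all 12 mice. Comparisons of disjoint mice used a separate fit of 6 mice each. With 3 mice against 3, an exact two-sided permutation test of a single gene cannot go below p = 0.1, so none is reported. Alternatives were DESeq2 1.42.0, other scalings and filters, CBP-ifKO counts divided by 2, thinned counts, a replicate block and fits without single mice. Named genes were those of interest in the study, the 12 largest decreases and 12 largest increases (1 CPM or more, no overlap), up to 6 genes per direction at the control level, 5 per direction by the p between the mutant groups, and 2 to 4 called members of each list by p; 1 gene is not reported here. The members and lists were chosen with earlier results of these data known. The fits were tested on simulated data. Of the supplementary tables, whose fold changes and p-values are the authors' own comparisons, only gene names were used.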

Additional observations from a re-analysis of the deposited data

How the results depend on the processing

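The 1620 genes changed in CBP-ifKO_EE against Control_SC became 1219 with only the 6 mice of these groups, and between 1430 and 2073 with DESeq2, DESeq2 size factors, CBP-ifKO counts divided by 2 (with or without thinning to equal depth), no filter, a filter of 1 CPM in 3 mice, or the replicate block. Requiring in addition an absolute log2 fold change over 0.5 left 449. Leaving out 1 mouse gave between 891 and 1203 genes, between 665 and 892 lower and between 226 and 311 higher, in fits of fewer mice. Without the Control_EE mouse in which choroid plexus genes were high, an alternative chosen after seeing the data, 1520 genes changed, of which 1086 were lower and 434 higher. Between the mutant groups, the 2 genes called became 50 with DESeq2, 0 with CBP-ifKO counts divided by 2 and 17 with the replicate block, and the cause was not tested. Whether the replicate numbers pair the mice was not settled, and the main fits treat them as unpaired. Deviations of same-numbered mice from their group means had correlations of -0.0574, 0.0833 and -0.0122 for CBP-ifKO_EE and Control_SC. For CBP-ifKO_SC and Control_SC they were 0.074, -0.0472 and 0.102. With so few mice such values cannot exclude a pairing. With the replicate block 1828 genes changed in CBP-ifKO_EE against Control_SC and 1197, in place of 1020, in CBP-ifKO_SC against Control_SC.

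Of the genes chosen in the other 6 mice, 461 lower and 222 higher ones were at the control level with a bound of 0.5, which is wider by construction, and 39 higher ones without the Control_EE mouse, which changes the genes chosen. Leaving out 1 mouse of CBP-ifKO_EE or Control_SC gave between 203 and 388 lower and between 34 and 89 higher genes apart, and between 114 and 172 lower and between 75 and 92 higher genes at the control level. Of 1815 checks of named genes, 1656 kept the direction and the side of the threshold, 141 lost the call, 3 gained it and 15 changed sign, and 68 of the 103 named genes called kept the call without each single mouse. The genes that changed sign had not passed the test. They were Ptgs2 (0.0025 with 1 CPM in 3 mice, 0.0035 with only the 6 mice, -0.0664 to 0.0433 without single mice), Fos (0.0204 with the replicate block, -0.6847 to 1.324 without single mice) and, without single mice, Arc (-0.2517 to 0.7788), Npas4 (-0.7268 to 0.1298), Ep300 (-0.0039 to 0.2956), Lingo3 (-0.1327 to 0.0205), Mfsd4a (-0.1299 to 0.0011) and Robo3 (-0.2595 to 0.0156). Depth limits genes near 0.0801 to 0.112 CPM, where 3 counts lie, and near 0.16 to 0.21 CPM in CBP-ifKOs if their counts, all even, hold each read as 2.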
